A study of Mus musculus with 17 samples.

Results

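The genes described here are 8 transcripts of late spermatids, the haploid germ cells that are remodelled into sperm: Prm1, Prm2, Tnp1, Tnp2, Odf1, Akap4, Smcp and Gapdhs. They were chosen by name, as every probe of the array that is no control and whose gene name is 1 of the 8 or an older symbol of it, and all 8 genes were found, with 12 of the array's 41174 probes. The tissue was epididymal white adipose tissue, the fat pad that lies along the epididymis, of adult male C57BL/6J mice. All mice had eaten a purified diet with 30% of its energy as fat for 13 weeks; the carbohydrate had a high glycemic index in 9 mice (HGI) and a low one in 8 mice (LGI). RNA of each mouse, labelled with Cy5, was hybridized to an array of its own together with a Cy3-labelled pool of all LGI and HGI samples, which holds the RNA of these 17 mice and may also hold that of 2 mice whose arrays the study left out.

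In spermatids, chromatin is packed in steps: histones give way to the transition proteins (Tnp1, Tnp2), and these to the arginine-rich protamines (Prm1, Prm2). Odf1 is a protein of the outer dense fibres along the sperm tail, and Akap4 is the main scaffold of the fibrous sheath of the tail. Gapdhs is the glycolytic enzyme that is anchored in that sheath, and Smcp is a cysteine-rich protein of the capsule around sperm mitochondria. Adipose tissue has no spermatids, and the fat pad studied here touches the epididymis, through which sperm pass. In a whole tissue, fewer cells of a type and less RNA per cell cannot be told apart.

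Prm1, Prm2 and Tnp2 lie next to each other on chromosome 16 with Prm3 between Tnp2 and Prm2, and Tnp1 lies on chromosome 1. Their promoters are shown because the 3 neighbours did not share 1 pattern across the mice: Prm1 and Prm2 were highest in the same mouse, and Tnp2 was not. Each sequence is the 250 bases before the transcription start in RefSeq, build GRCm38.p6, minus strand, with matches of the searched motifs in capitals.
Prm1, chr16:10796824-10797073: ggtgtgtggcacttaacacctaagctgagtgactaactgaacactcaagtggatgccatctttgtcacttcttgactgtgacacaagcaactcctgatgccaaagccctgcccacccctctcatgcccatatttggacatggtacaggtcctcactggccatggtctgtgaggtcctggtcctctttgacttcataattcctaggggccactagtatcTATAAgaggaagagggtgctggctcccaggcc
Prm2, chr16:10792106-10792355: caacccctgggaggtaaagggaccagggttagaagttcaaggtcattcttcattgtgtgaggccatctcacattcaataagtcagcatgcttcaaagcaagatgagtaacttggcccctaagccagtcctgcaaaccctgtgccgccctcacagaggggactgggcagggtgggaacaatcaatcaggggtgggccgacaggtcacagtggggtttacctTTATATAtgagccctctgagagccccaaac
Tnp2, chr16:10788656-10788905: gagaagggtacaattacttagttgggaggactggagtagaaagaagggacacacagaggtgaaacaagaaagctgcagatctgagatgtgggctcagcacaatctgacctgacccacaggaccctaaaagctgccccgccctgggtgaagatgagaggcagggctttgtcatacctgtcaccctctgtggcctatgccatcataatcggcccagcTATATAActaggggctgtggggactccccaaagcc
Tnp1, chr1:73015900-73016149: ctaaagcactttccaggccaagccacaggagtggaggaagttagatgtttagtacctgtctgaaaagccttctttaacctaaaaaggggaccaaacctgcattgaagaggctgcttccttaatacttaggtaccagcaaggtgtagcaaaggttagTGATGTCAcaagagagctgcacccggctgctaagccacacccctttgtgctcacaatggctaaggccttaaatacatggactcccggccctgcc

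The motifs were TGACGTCA (the cyclic AMP response element, the site of CREM, the activator of many spermatid genes), its variant TGATGTCA, and the TATA-like strings TATAA and TATATA, all searched on both strands; the variant and the TATA-like strings were chosen after the sequences had been read. TATAA overlaps TATATA where a stretch holds both. No member's window held TGACGTCA, which 1.55% of the 32851 RefSeq windows of this length held. TGATGTCA, present in 2.93% of all windows, stood 94 bases before the start of Tnp1 and was also found for Akap4 and Gapdhs. That is 3 of the 7 members with a window, and 4 of their 9 windows. No other variant of TGACGTCA was searched. The Prm1 window above holds the variant tgacttca, which is not marked and whose share over all windows was not counted. TATATA, in 5.25% of all windows, stood 29 bases before the start of Prm2 and 35 before that of Tnp2, and in no other of the 7 (2 of 9 windows). TATAA, in 22.8% of all windows, was found for 4 of the 7 members (Prm1, Prm2, Smcp and Tnp2), in 4 of their 9 windows. It stood 32 bases before the start of Prm1, but 250 before that of Smcp, at the far edge of the window. A match describes the letters only. Odf1 is named here without a sequence.

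Between 57.6% and 66.7% of the spots were well above background in Cy5 on HGI and LGI arrays alike except for 1 LGI array at 54.2%, and 4 to 43 spots an array carried an outlier flag. The arrays were scanned in 1 run, and the median Cy5 signal of the negative controls was 124.3 to 145 units on the first 8 arrays scanned and 98.3 to 112.2 on the later 9, each part holding both diets. LGI 9 stands apart, since the mean log2 ratio of 12 detected motile cilia genes was 0.94 in it, against -0.34 to 0.02 in the other LGI mice and -0.32 to 0.22 in the HGI mice. HGI 9 and HGI 10 stand apart for 8 detected seminal vesicle genes, with mean log2 ratios of 1.70 and 1.66, against -4.19 to -3.94 in the other HGI mice and -4.23 to -3.92 in the LGI mice. All 12 adipocyte markers were well above background on every array. The labels number the samples without saying more of each animal, so a p-value measures the spread between these samples.

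The members were dim. Spots are given as units above the median negative control of their array. The Prm2 spot (A_51_P138705) read 36.3 to 87.8 units in the Cy5 of HGI mice, with a median of 62.3, and 51.1 to 221.2 units with a median of 73.8 in LGI mice. In Cy3, which holds the same pool on every array, it read 84.7 to 120.4 units on HGI arrays and 89.8 to 118.7 on LGI arrays. The pool was thus brighter than every mouse but LGI 9 at this spot.

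A spot counts as detected where the scanner software called it well above background. In Cy5, Prm2, Tnp1 and 1 Prm1 probe (A_51_P162984) were detected on all 17 arrays. Both Gapdhs probes were detected on 16 arrays, Tnp2 on 15, the brightest Prm1 probe (A_52_P533280) on 13, Akap4 on 12 of the 16 arrays where its spot carried no outlier flag, Smcp on 7, the third Prm1 probe (A_52_P533287) on 3, Odf1 A_51_P461801 on 1 and Odf1 A_52_P294490 on none. In the Cy3 pool, 8 of the 12 probes were detected on all 17 arrays: the 3 Prm1 probes, Prm2, Tnp1, Tnp2, Smcp and Gapdhs A_51_P265695. Smcp was therefore detected in the pool on every array and in the mouse itself on 7.

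Akap4 ran the other way, with 12 of 16 unflagged spots detected in Cy5 and 5 in Cy3 (13 and 6 of 17 with the flagged spot of HGI 2), as did Gapdhs A_52_P356170 with 16 and 7. Between 5 and 9 of the 12 probes were detected in the Cy5 of an HGI mouse, with a median of 8, against 7 to 10 with a median of 8.5 in LGI mice. LGI 9 had the most, 10 probes, and HGI 6 and HGI 10 the fewest, 5 each. Over all spots, too, LGI 9 had the highest share well above background in Cy5 (66.7%). HGI 6 (57.6%) and HGI 10 (57.7%) had the lowest but for LGI 1 (54.2%), which had 7 member probes detected. Of the 12 probes, none was detected in a different share of HGI and LGI arrays at an unadjusted two-sided Fisher exact p under 0.05. A probe detected on 15 or more of the 17 arrays, or on 3 or fewer, could not reach that p however the diets fell. Only Prm1 A_52_P533280, Akap4 and Smcp could, so for the other probes the test decides nothing. The widest gap was that of Prm1 A_52_P533287, detected in 0 of 9 HGI and 3 of 8 LGI mice (two-sided Fisher exact p = 0.0824). No lower p can arise from 3 detections.

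**Figure D1:**
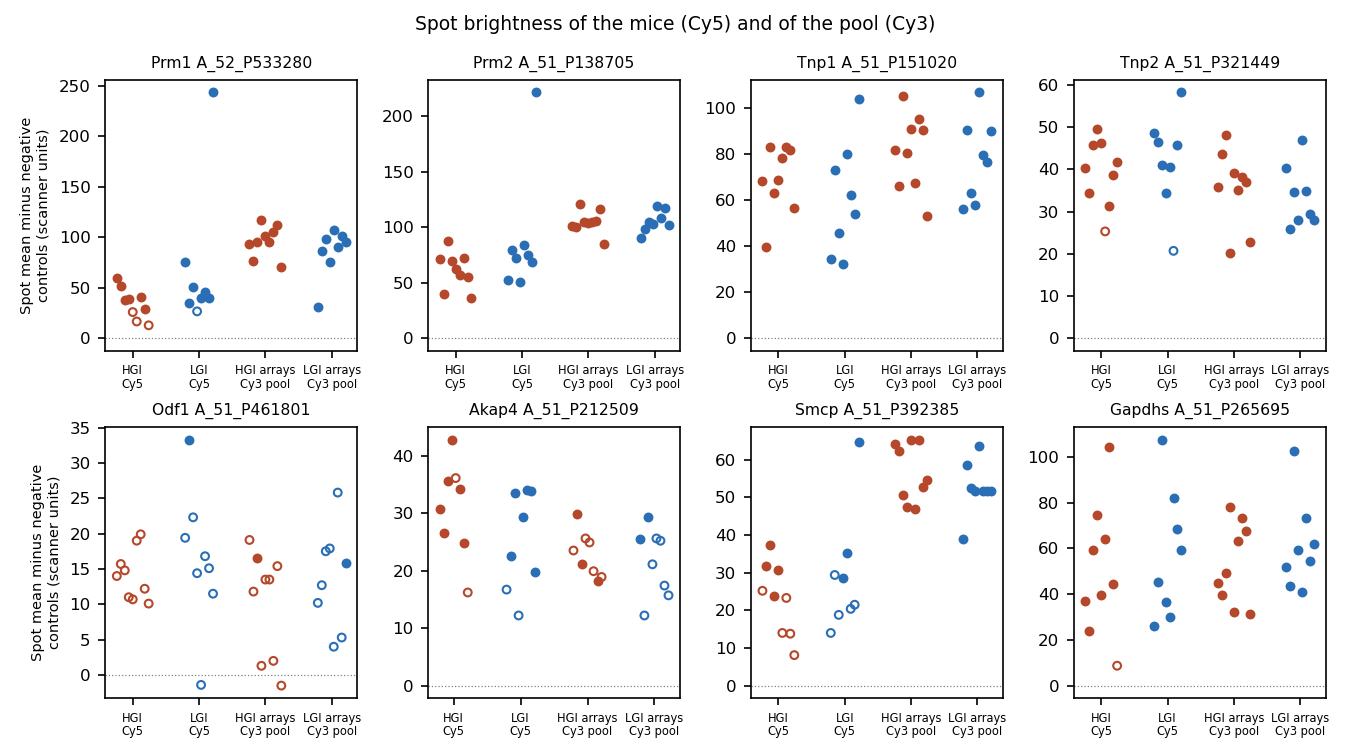
Spot brightness above the median negative control of the array, in scanner units, for the brightest probe of each gene (panels with axes of their own). Each point is 1 array, filled where the spot was well above background and open where it was not; the Cy5 of HGI and LGI mice is on the left of a panel and the Cy3 pool on the same arrays on the right. The high points of Prm1 (243.4 units), Prm2 (221.2) and Smcp (64.7) in LGI Cy5 are all LGI 9, and the Akap4 spot of HGI 2, which carried an outlier flag, is left out.

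Since Cy3 holds 1 pool, its spread over the arrays shows how far the pool's own spot varies with no difference between mice. The dyes differed in brightness: the median was 39.6 units in Cy5 and 95.3 in Cy3 for Prm1 A_52_P533280, and 23.9 and 52.4 for Smcp. For Prm2 it was 69.7 and 104.2. Tnp2, Akap4 and Gapdhs A_52_P356170 were brighter in Cy5. SDs in units are therefore not spreads relative to the signal. Without LGI 9, the Cy5 of the Prm2 spot varied by 14.9 units (SD, n = 16) against 9.8 in Cy3. For Tnp1 the SDs were 17.5 units in Cy5 and 17 in Cy3, for Tnp2 8.3 and 8.1, for Smcp 8.4 and 7.7, and for Prm1 A_52_P533280 15.7 in Cy5 and 20.6 in Cy3. Outside LGI 9, the Cy5 SD of these 4 probes was at most 1 unit above that of the pool, which does not compare the spreads relative to brightness. The gap was wider for Gapdhs and Akap4: 28.6 units in Cy5 and 19.1 in Cy3 for Gapdhs A_51_P265695, 8.5 and 5.1 for Gapdhs A_52_P356170, and 8.6 and 4.8 for Akap4 without its flagged spot. With LGI 9, the Cy5 SD was 40.6 units for Prm2 and 51.8 for Prm1 A_52_P533280.

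All further values are log2 ratios of the mouse over the pool after normexp background correction with an offset of 50 and loess normalization. At spots as dim as these, the offset draws ratios towards 0. The protamine genes were below the pool. Prm2 ran from -0.74 to -0.39 in HGI mice, with a median of -0.50, and from -0.55 to 0.48 in LGI mice, with a median of -0.38. It averaged -0.52 ± 0.11 in HGI mice (SD, n = 9) and -0.29 ± 0.33 in LGI mice (SD, n = 8), the LGI mean falling to -0.40 ± 0.10 (SD, n = 7) without LGI 9.

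Prm1 has 3 probes, and they did not give 1 picture. The brightest, A_52_P533280, ran from -1.12 to -0.39 in HGI mice, with a median of -0.83, and from -0.76 to 0.63 in LGI mice, with a median of -0.58. LGI 9 and LGI 1 stood above 0 there, at 0.63 and 0.54, and all other mice lay below. In LGI 9 the Cy5 spot was bright, at 243.4 units against 12.9 to 75.7 in the other 16 mice. In LGI 1 the Cy3 spot was dim, at 31.2 units where the other arrays had 70.1 to 117.4, and its Cy5 was 75.7.

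The other Prm1 probes lacked a high value in LGI 1, which stood at -0.41 on A_51_P162984 and at -0.64, the lowest LGI value, on A_52_P533287. On A_51_P162984 the HGI mice ran from -0.50 to -0.30 and the LGI mice from -0.49 to -0.05. A_52_P533287 ran from -0.71 to -0.07 in HGI mice and from -0.64 to 0.56 in LGI mice. LGI 9 was the highest of the 17 mice on all 3 probes.

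The transition protein genes lay nearer to the pool than Prm2. Tnp1 ran from -0.36 to 0.07 in HGI mice, with a median of -0.26, and from -0.34 to -0.11 in LGI mice, with a median of -0.23. Its highest values were those of HGI 10 (0.07), HGI 6 (0.03) and HGI 9 (-0.04), and LGI 9 was the highest LGI mouse. Tnp2 lay around the pool, from -0.21 to 0.36 with a median of -0.01 in HGI mice and from -0.22 to 0.20 with a median of 0.10 in LGI mice. The diets overlapped for both genes.

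Smcp, the mitochondrial capsule gene, was below the pool in every mouse, from -0.74 to -0.28 with a median of -0.58 in HGI mice and from -0.52 to -0.08 with a median of -0.41 in LGI mice. LGI 9 was its highest mouse. Odf1 A_51_P461801 ran from -0.08 to 0.36 in HGI mice and from -0.20 to 0.27 in LGI mice. It had 1 detection in Cy5, so these values lie near background. Its second probe, never detected in either dye, ran from -0.25 to 1.02 in HGI mice and from -0.10 to 0.37 in LGI mice.

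Akap4 ran from -0.07 to 0.32 in 8 HGI mice and from -0.14 to 0.28 in 8 LGI mice. The ninth HGI mouse, HGI 2, was left out of the Akap4 fit because its spot was flagged as an outlier: it read 4316.2 units in Cy5 and 3297.8 in Cy3, where unflagged Akap4 spots read 12.2 to 42.8 in Cy5. The 2 Gapdhs probes disagreed. A_51_P265695 lay below the pool in 12 of 17 mice (HGI -0.42 to 0.24, LGI -0.33 to 0.12) and A_52_P356170 above it in all 17 (HGI 0.05 to 0.43, LGI 0.05 to 0.47).

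**Figure D2:**
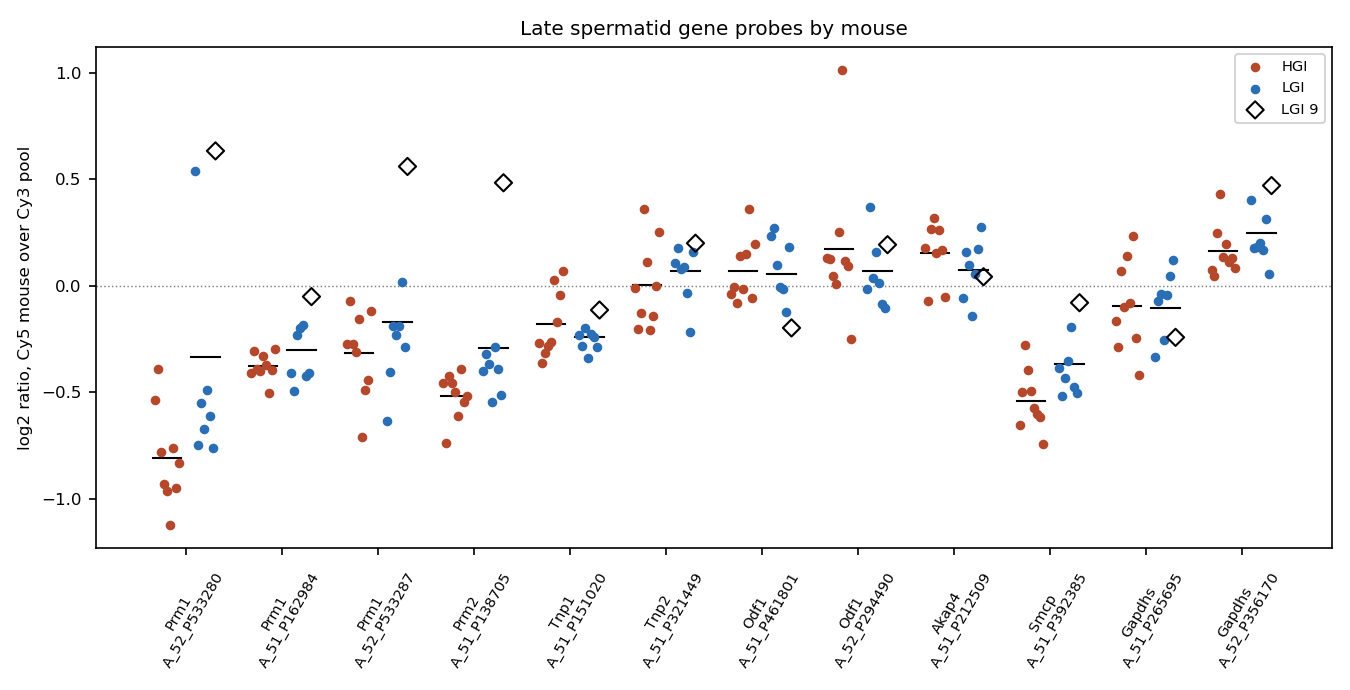
Log2 ratio of mouse (Cy5) over pool (Cy3) for the 12 probes, with HGI mice left of LGI mice at each probe. Points are mice, black bars are group means, and the open diamond is LGI 9. LGI 9 is the highest point of all 3 Prm1 probes, Prm2, Smcp and Gapdhs A_52_P356170; the point at 1.02 is HGI 6 on the undetected Odf1 probe.

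Against the pool, 6 of the 12 probes were below 0 in at least 15 mice (the 3 Prm1 probes, Prm2, Tnp1 and Smcp), as were 11.4% of all probes with a value on every array. Smcp and Prm1 A_51_P162984 were below in all 17 mice and Prm2 in 16. No array had the dyes swapped, so a lower level in the mice than in the pool cannot be told apart from a dye effect of these probes. Epididymis epithelium genes (22 measured) had a median log2 ratio of -2.12 to the pool and the seminal vesicle genes (9 measured) one of -3.52; their part in the members' ratios was not tested. A dye effect that all arrays share cancels between the diets.

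The diet comparison asked whether the members differed between HGI and LGI mice. None of the 12 probes passed an adjusted p under 0.05 in limma over all 41174 probes, and 0% of all probes did; the members' adjusted p ran from 0.801 to 0.996. At an unadjusted p under 0.05 there were 3 of 12 (Prm1 A_52_P533280, Prm2 and Smcp), all lower in HGI, beside 5.82% of all probes. Over all 12 probes, 5 differences were above 0 and 7 below, and over the 8 brightest probes the median was -0.03, against 0.00 over all probes.

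Prm1 A_52_P533280 differed by -0.48 ± 0.18 (SE; HGI minus LGI, 95% interval -0.84 to -0.11, limma adjusted p = 0.801). Prm2 differed by -0.22 ± 0.10 (SE, 95% interval -0.44 to -0.01, limma adjusted p = 0.855) and Smcp by -0.17 ± 0.08 (SE, 95% interval -0.33 to -0.02, limma adjusted p = 0.829). Exact two-sided permutation of the diets over all 24310 splits, not adjusted for the 12 probes, gave p = 0.0182 for Prm1 A_52_P533280, 0.0148 for Prm2 and 0.0305 for Smcp. For all 3, the HGI and LGI values overlapped.

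These differences were smaller without LGI 9 and kept their sign. Without LGI 9, Prm2 differed by -0.11 ± 0.06, Smcp by -0.13 ± 0.07 and Prm1 A_52_P533280 by -0.34 ± 0.15 (SE; limma adjusted p 0.947, 0.947 and 0.924), and 1 of 12 probes, the Prm1 probe, kept an unadjusted p under 0.05, beside 5.36% of all probes. The exact two-sided permutation test without LGI 9, over 11440 splits and not adjusted, gave p = 0.0386 for that Prm1 probe, 0.043 for Prm2 and 0.0661 for Smcp. Without both LGI 1 and LGI 9, a choice made after seeing the data, that Prm1 difference was -0.17 ± 0.10 (SE) and no member probe had an unadjusted p under 0.05, beside 3.56% of all probes. The other Prm1 probes differed by -0.08 ± 0.07 (A_51_P162984) and -0.15 ± 0.12 (A_52_P533287; SE, limma adjusted p = 0.922 for both), and each by -0.04 without LGI 9. Over the other ways of processing, the difference of A_52_P533280 ran from -1.19 with scanner-processed signals to -0.11 in the authors' deposited table, and was -0.73 with an offset of 10, none with an adjusted p under 0.05.

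A_52_P533287 was not well above background in any HGI mouse, so its HGI level is a bound. On the Cy5 channel scaled by quantiles, the LGI mean lay 1.11-fold above that bound. The distance to the bound was not tested, and HGI against LGI on that channel had a limma adjusted p of 0.722. Only 3 of 8 LGI mice were well above background by the scanner's call, so the LGI mean is uncertain too and the ratio is no lower limit. Without LGI 9 the ratio was 1.04-fold, with 2 of 7 LGI mice well above background. Within the first 8 arrays scanned Prm2 differed by -0.35 and within the later 9 by -0.09; for Prm1 A_52_P533280 the values were -0.50 and -0.45, and for Smcp -0.19 and -0.14. LGI 9 was among the first 8. With the scan part as a block, the differences were -0.21 for Prm2, -0.47 for Prm1 A_52_P533280 and -0.17 for Smcp. Without HGI 9 and HGI 10 the same 3 probes differed by -0.22, -0.45 and -0.13, and Tnp1, highest in HGI 10, by 0.006.

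Differences of the remaining members were small against their errors. Tnp1 differed by 0.06 (95% interval -0.08 to 0.20), Tnp2 by -0.07 (-0.24 to 0.11), Akap4 by 0.08 (-0.08 to 0.23) and Gapdhs A_51_P265695 by 0.01 (-0.18 to 0.19), all HGI minus LGI in log2 ratio. The direction of Tnp1, Akap4, Odf1 and Gapdhs turned under at least 1 other way of processing, scan part or left-out mouse.

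**Figure D3:**
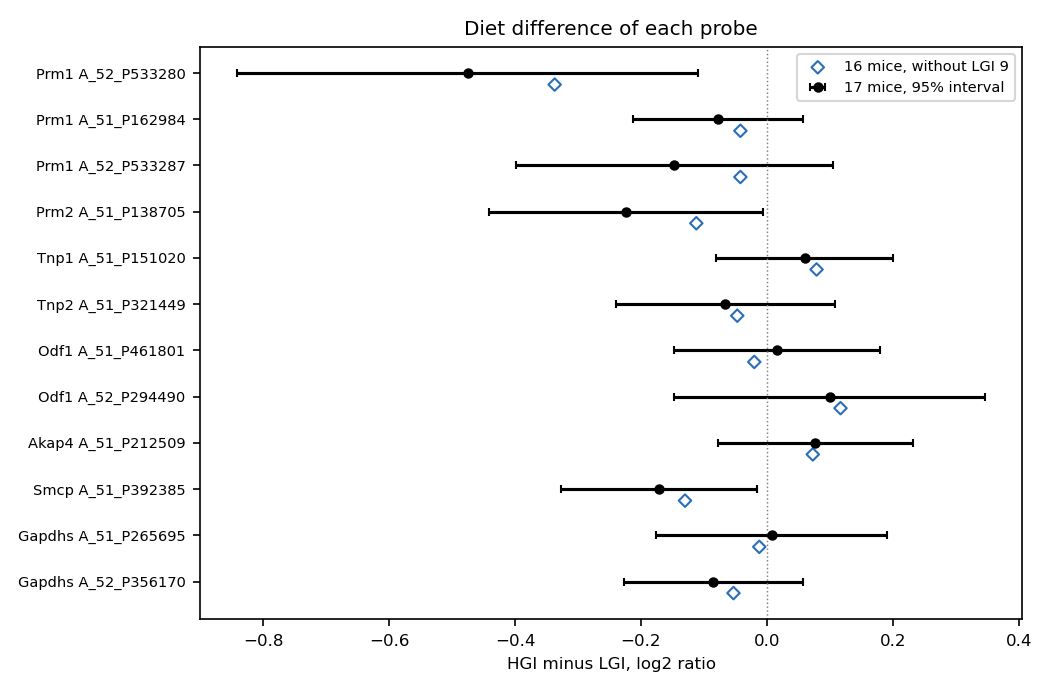
Difference between the diets for each probe, as HGI minus LGI in log2 ratio, with its 95% interval from limma over 17 mice (black) and the value without LGI 9 (open diamonds). The intervals of Prm1 A_52_P533280, Prm2 and Smcp lie below 0 with all mice, and each of these values moves towards 0 without LGI 9.

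LGI 9 was the highest of all 17 mice on 6 of the 12 probes: the 3 Prm1 probes, Prm2, Smcp and Gapdhs A_52_P356170. Over all probes with a value on every array, LGI 9 was the highest in 7.89%. With the brightest probe of each gene, it was the highest for 3 of 8 genes. LGI 9 was known beforehand to stand apart for Prm2, so these counts are a description and are not to be counted against chance. For Prm2 it stood at 0.48, against -0.55 to -0.29 in the other 7 LGI mice, and its Cy5 spot read 221.2 units against 36.3 to 87.8 in the other 16 mice while its Cy3 read 102.0. On Prm1 A_52_P533287 it stood at 0.56 against -0.64 to 0.02 in the other LGI mice, with 119.4 Cy5 units against 8.3 to 40.6 in the other 16 mice. Smcp read 64.7 Cy5 units in LGI 9 and at most 37.5 elsewhere.

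On the other 6 probes LGI 9 was not the highest of the 17 mice. It was the highest LGI mouse for Tnp1, at -0.11, and for Tnp2, at 0.20, both inside the range of the HGI mice, and both genes had their brightest Cy5 spots there (104.0 and 58.2 units). Akap4 stood at 0.04, Gapdhs A_51_P265695 at -0.24 and Odf1 A_51_P461801 at -0.20, the lowest Odf1 value of the 17 mice. Taking the median over the 8 brightest probes, LGI 9 exceeded the median of the other LGI mice by 0.12, against a median of -0.005 over all probes.

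Correlation across the mice was computed for the 28 pairs of members with 1 probe a gene, the brightest. The strongest were Prm1 with Prm2 (r = 0.66, permutation p = 0.0171; rho = 0.51, permutation p = 0.04), Prm2 with Smcp (r = 0.65, permutation p = 0.00498; rho = 0.45, permutation p = 0.0717) and Akap4 with Gapdhs (r = 0.63, permutation p = 0.00924; rho = 0.56, permutation p = 0.027). Prm1 with Smcp had r = 0.57 (permutation p = 0.0191; rho = 0.45, permutation p = 0.0746). None of the 28 passed Benjamini-Hochberg adjustment: the adjusted permutation p of r was 0.134, 0.129, 0.129 and 0.134 for these pairs, and that of rho was 0.502 for each. The median r over the pairs was 0.02, with 14 above 0 and 14 below.

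The r of the pairs among Prm1, Prm2 and Smcp was lower without LGI 9, and rho less so. Without the 2 mice farthest from the Prm1 median, LGI 1 and LGI 9, r of Prm1 with Prm2 was 0.17, and without LGI 9 alone it was 0.22. Prm2 with Smcp gave 0.45 without HGI 2 and LGI 9, and 0.37 without LGI 9. For Prm1 with Smcp, r was 0.29 without LGI 1 and LGI 9. Without LGI 9 alone, rho was 0.41 for Prm1 with Prm2 (permutation p = 0.117), 0.34 for Prm2 with Smcp (permutation p = 0.196) and 0.34 for Prm1 with Smcp (permutation p = 0.205). Akap4 with Gapdhs gave 0.80 without HGI 3 and LGI 5, and 0.62 without LGI 9. Only that pair and Tnp1 with Smcp had an unadjusted permutation p of r under 0.05 without LGI 9. For Tnp1 with Smcp r was -0.58 there (permutation p = 0.0183, adjusted p = 0.256).

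Within the scan parts the pairs were uneven. Among the first 8 arrays r was 0.97 for Prm1 with Prm2, 0.75 for Prm2 with Smcp, 0.69 for Prm1 with Smcp and 0.16 for Akap4 with Gapdhs. Among the later arrays it was 0.23, 0.17, 0.42 and 0.84 for the same pairs, over 9 arrays, or 8 with Akap4. Prm1 with Prm2 gave 0.69 over the first part without LGI 9 (7 arrays).

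No pair of a protamine with a transition protein gene passed: Prm2 with Tnp1 had r = 0.13 (permutation p = 0.592, adjusted p = 0.832) and Prm2 with Tnp2 r = 0.31 (permutation p = 0.243, adjusted p = 0.584), and Tnp1 with Tnp2 r = 0.05 (permutation p = 0.858, adjusted p = 0.93). Probes of the same gene bore on how well such pairs can be read. Over 5 such pairs, A_51_P162984 and A_52_P533287 of Prm1 had r = 0.68 (permutation p = 0.00385, adjusted p = 0.0192; rho = 0.52, permutation p = 0.0357), which was 0.41 without LGI 9. Prm2 with A_51_P162984 had r = 0.53 but rho = -0.05 (permutation p = 0.0421 and 0.846), and r = -0.13 without LGI 9. Prm2 with A_52_P533287 had r = 0.66 and rho = 0.16 (permutation p = 0.0306 and 0.539), and r = -0.02 without LGI 9. The brightest Prm1 probe gave 0.45 with A_51_P162984 and 0.43 with A_52_P533287. Without LGI 9 these were 0.06 and -0.10, and without both LGI 1 and LGI 9 they were 0.34 and 0.63. The 2 Odf1 probes gave 0.07 and the 2 Gapdhs probes -0.15.

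**Figure D4:**
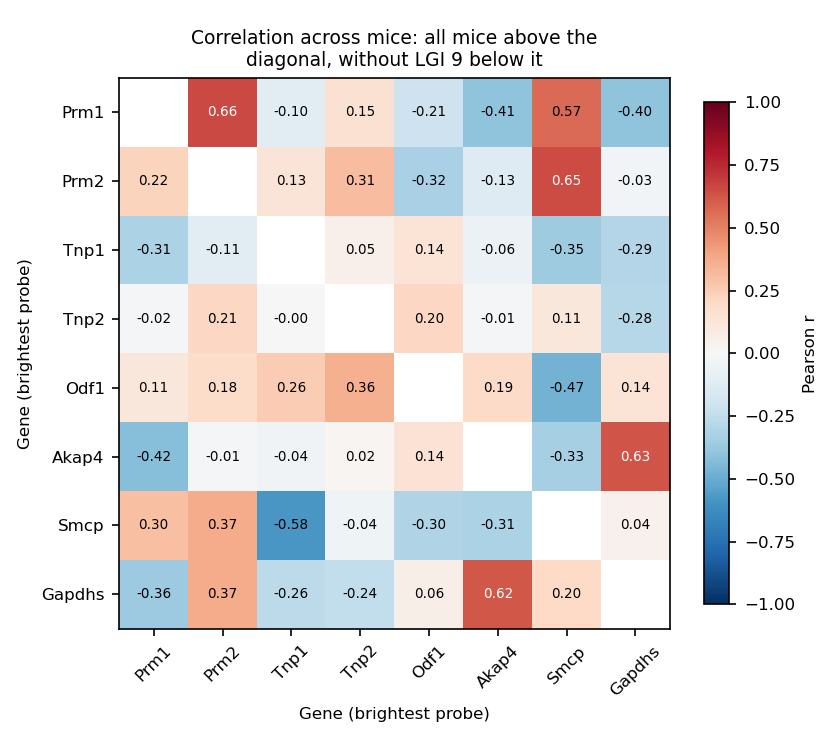
Pearson r of log2 ratios between the members across mice, 1 probe a gene, with all 17 mice above the diagonal and without LGI 9 below it (1 mouse fewer for Akap4). Prm1 with Prm2 is 0.66 above and 0.22 below, Prm2 with Smcp 0.65 and 0.37, and Akap4 with Gapdhs 0.63 and 0.62.

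**Figure D5:**
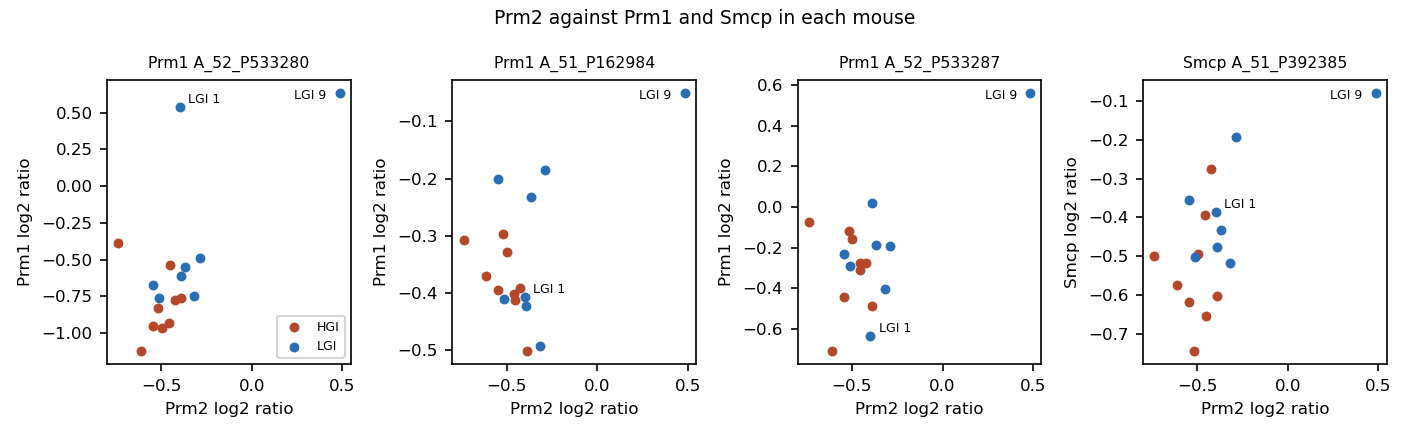
Log2 ratio of Prm2 (x axis) against the 3 Prm1 probes and Smcp (y axes) in each mouse, HGI red and LGI blue. LGI 9 lies at the upper right of all 4 panels, apart from the other mice in Prm2, and LGI 1 is high on the first Prm1 probe but not on the others.

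Genes whose pattern was most like that of Prm2 were ranked by Pearson r over the 17 mice among 14251 named probes well above background in Cy5 on at least 8 arrays. Among the highest were Agrn (0.93), Dync2li1 (0.92), Gprasp2 (0.91) and Glis2 (0.91), followed by Dao, Khk, Lhx1os, Myb and Cldn10 (0.88 to 0.90). LGI 9 exceeded the median of the other LGI mice in each of these 9 genes, by 0.75 (Glis2) to 2.34 (Dync2li1). The ranking included LGI 9, which stands apart for Prm2, so high values there follow from how these genes were picked. Without LGI 9 the r of these genes with Prm2 lay between 0.42 (Dync2li1) and 0.78 (Agrn). None passed an adjusted limma p under 0.05 between the diets. For the mean of 7 members detected in Cy5 on at least 4 arrays, the highest r were those of Bbs4 (0.94, and 0.88 without LGI 9), Agrn (0.88), Glis2 (0.88), Dync2li1 (0.86) and Impa1 (0.86), followed by Zfp606, Lzts3, Pcdha9 and Cul7 (0.85 to 0.86). Without LGI 9 the r of these genes other than Bbs4 lay between 0.54 (Cul7) and 0.78 (Zfp606).

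Among 48 other measured spermatid genes, LGI 9 was the highest mouse in 5, beside the 7.89% of all probes, and its median excess over the other LGI mice was 0.03. Of these genes 23 were detected in Cy5 on at least 8 arrays and 12 on none. The 4 brightest were Dkkl1, an acrosomal protein gene (HGI -0.38, LGI -0.98, mean log2 ratio), Gsg1 (HGI 0.11, LGI -0.12), Ccin, a head cytoskeleton gene (HGI -0.05, LGI 0.02), and Crem, the transcription factor gene (HGI -0.01, LGI -0.07). In LGI 9 they stood at -1.18, -0.004, 0.18 and 0.11. Dkkl1 and Gsg1 were highest in HGI 9, at 1.84 and 1.24, and next in HGI 10, at 1.43 and 0.93, the mice that stand apart for the seminal vesicle genes. The mean log2 ratio of the 23 detected genes was 0.22 in HGI 9 and 0.13 in HGI 10, against -0.14 to 0.04 in the other HGI mice and -0.19 to -0.05 in the LGI mice. The part of seminal vesicle tissue in these values was not tested.

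Genes of earlier germ cells (18 measured, 7 detected on at least 8 arrays) had LGI 9 highest in 3, with a median excess of -0.01, and the genes of Sertoli and Leydig cells (14 measured, 7 detected) in 2, with 0.01. Epididymis epithelium genes had LGI 9 highest in 1 of 22, with a median excess of -0.13, and seminal vesicle genes in 0 of 9, with 0.06. The adipocyte markers had it highest in 0 of 12, with -0.33. The motile cilia genes had it highest in 16 of 22, with 0.86. The mean log2 ratio of 19 detected epididymis genes ran from -2.59 to -2.19 in HGI mice and from -2.56 to -2.11 in LGI mice, and was -2.44 in LGI 9. The part of cilia-bearing or epididymal cells in the members' values of LGI 9 was not tested.

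Between the diets no list had a gene past an adjusted limma p under 0.05. At an unadjusted p under 0.05 there were 2 of 48 other spermatid genes, 1 of 18 earlier germ cell genes, 0 of 14 Sertoli and Leydig cell genes, 0 of 22 epididymis genes, 1 of 22 motile cilia genes, 0 of 9 seminal vesicle genes and 3 of 12 adipocyte markers, beside the 5.82% of all probes. Of the other spermatid genes 23 were higher and 25 lower in HGI. All 9 seminal vesicle genes were higher in HGI (median difference 1.30), where HGI 9 and HGI 10 had the highest means. The mean log2 ratio of the 6 members detected on at least 8 arrays ran from -0.40 to -0.16 in HGI mice and from -0.31 to 0.17 in LGI mice, the last being LGI 9.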

How the data were processed

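The study measured RNA of 17 mice on 2-colour Agilent arrays (HGI 9, LGI 8). Spot intensities per dye, scanner-processed intensities and log10 ratios are as deposited by the authors, written by Agilent Feature Extraction (version 9.1.3.1 per the file headers, 9.5.1.1 per the submitters' processing notes). The deposited log2 values from the authors' own processing, whose scale and centring are not stated, served as an alternative; the log10 ratios were not used.

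Intensities were corrected by normexp (offset 50) and normalized by loess in limma 3.58.1 under R 4.3.3 (data.table, version 1.17.8), without 2256 control spots of 43790 and without flagged spots. All 41174 probes were tested by limma's lmFit and eBayes with Benjamini-Hochberg adjustment and no filter on dim probes. Correlations used 100000 resamples. Python 3.11.15 with numpy 2.4.6, pandas 2.3.3, scipy 1.17.1 and matplotlib 3.10.9 did the rest. The linear model was tested on simulated data. The arrays' number limits the precision.

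The members and the gene lists were chosen with earlier results of these data known. The text names all 8 members with every probe, the 10 genes most like Prm2 and the 10 most like the members' mean, and up to 4 brightest genes of a list. From each of the 2 likeness lists 1 gene is not reported here. Probes were named through RefSeq (GRCm38.p6): 23374 by accession, 6733 by symbol, 2919 by a former symbol, and 8148 only by what the array gives. Coordinates belong to the RefSeq promoters, since the array files name no build.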

Additional observations from a re-analysis of the deposited data

Results flagged for a closer look

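In Prm2, LGI 9 stood at a log2 ratio of 0.48 against -0.55 to -0.29 in the other 7 LGI mice, a gap to its neighbour that was 0.75 of the group's range and past Dixon's limit of 0.526 for 8 samples. In Odf1 A_52_P294490, a probe never well above background, HGI 6 stood at 1.02 against -0.25 to 0.25 in the other 8 HGI mice, a gap of 0.603 of the range against the limit of 0.493. Of the 24 groups tested (12 probes in 2 diets) 2 were singled out in this way, where chance gives about 1 in 20. LGI 9 was known to stand apart for Prm2 before these groups were tested, so its value is a description and is not to be counted against chance.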

How the results depend on the processing

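Over 35 alternatives to the diet comparison, 0 of the 12 member probes passed an adjusted p under 0.05 in any, as in the reported fit, and the lowest adjusted p of a member gene was 0.565. Prm1 (-1.19 to -0.11), Prm2 (-0.41 to -0.09), Smcp (-0.34 to -0.04) and Tnp2 (-0.14 to -0.03) kept the sign of their brightest probe wherever it was tested. The other genes had another sign in 22 of 137 values, all with adjusted p of at least 0.844. With scanner-processed signals the difference was -0.117 for Odf1, -0.092 for Akap4 and -0.119 for Gapdhs; with Cy5 alone it was -0.056 for Odf1 and -0.096 for Gapdhs. In the first 8 arrays scanned it was -0.007 for Tnp1 and -0.033 for Odf1, and in the later 9 it was -0.004 for Gapdhs. The authors' deposited table gave -0.021 for Tnp1 and -0.012 for Gapdhs, array weights -0.012 for Odf1, an offset of 10 -0.014 for Gapdhs, and leaving out LGI 1 and LGI 9 together, chosen after seeing the data, -0.054 for Gapdhs. Leaving out 1 mouse at a time gave -0.02 to 0.047 for Odf1, below 0 without LGI 7, LGI 9 or HGI 7, and -0.034 to 0.048 for Gapdhs, below 0 without LGI 1, LGI 5, LGI 9, HGI 3, HGI 5 or HGI 7. The cause was not tested. Keeping flagged spots, also chosen after seeing the data, turned no sign.

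The replicate numbers were not taken to pair the mice, since same-numbered mice correlated at -0.31 to 0.28 over 7 pairs; with the replicate block, Prm2 differed by -0.267 over the shared numbers, the value without the block too, and 0 member probes were called; Akap4 differed by 0.196 with the block and 0.178 without it over the shared numbers, against 0.077 over all mice (limma adjusted p = 0.784, 0.786 and 0.929). No pair of members passed the adjusted threshold with an offset of 10, with Cy5 alone, without LGI 9 or without HGI 9 and HGI 10 (lowest adjusted permutation p 0.109, 0.177, 0.256 and 0.146). No probe's detection had an unadjusted Fisher exact p under 0.05 by diet within a scan part, above the negative controls' 95th percentile or without LGI 9. Probes detected on nearly all arrays or on few could not reach that p. Odf1 was too dim for its ratios to be read, and Smcp, Prm1 A_52_P533287 and Odf1 fell below a filter of 8 detected arrays.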
